A study of Mus musculus with 8 samples.

Results

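The 10 genes described here encode surface receptors and surface proteins listed as markers of marginal zone and follicular B cells. Some, but not all, are used to tell these subsets apart. They are Cr2, Cd55, Fcer2a, Fcmr, Cd1d1, Tnfrsf13c, Tnfrsf13b, S1pr3, Cd38 and Cd9. They were chosen by symbol, and 10 of the 10 were found among the 21878 symbols of the count table. RNA from peripheral blood of female wild-type C57BL/6 mice aged 6 to 8 weeks was sequenced, with 4 samples in the control group (no restraint stress) and 4 in the stress group (restraint stress for 6 h in a ventilated tube). The mice of both groups had no food or water during that time, and the controls were littermates that stayed in their cage. The comparison asks how acute restraint alters these transcripts in blood. The labels name blood cells without a sort, and levels are relative to the other RNA of the same library. A lower level of a B cell transcript can mean fewer B cells, less RNA per cell or more RNA from other cells. The RNA levels cannot tell these apart. By flow cytometry the study reported fewer B cells in blood after restraint, and how far this accounts for the RNA levels was not tested.

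Marginal zone B cells sit at the border of the splenic red and white pulp, take up complement-coated antigen through complement receptor 2 and answer blood-borne antigens quickly. Follicular B cells recirculate through blood and lymph and are the larger part of B cells in blood. Marginal zone cells are usually recognised by high Cr2 (CD21), Cd1d1 and Cd9 with little Fcer2a (CD23), follicular cells by Fcer2a with moderate Cr2. Both depend on the cytokine BAFF, which is bound by Tnfrsf13c (BAFF receptor) and Tnfrsf13b (TACI).

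Libraries held 31471145 to 39014775 counts in control samples and 25978683 to 29655725 counts in stress samples, and haemoglobin genes took 51.9% to 63.8% and 61.2% to 75.5% of them. Values are given as CPM, counts scaled to the sequencing depth of the library as adjusted by TMM, a normalization that takes most genes as unchanged, and its factors ran from 1.01 to 1.77 in control and from 0.507 to 1.1 in stress samples. The quasi-likelihood test of edgeR was run on the 11718 genes that reached 10 counts in 4 or more samples. In this text "fell" and "rose" stand for an adjusted p below 0.05 in that test. Differences are given as log2FC, the log2 of stress over control from the fit. Over all tested genes its median was -0.03 with TMM and -0.82 with libraries scaled by their total counts alone.

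B cell transcripts were detected in every library. The summed level of 12 pan-B cell markers, among them Cd79a, Ms4a1 and Pax5, was 1126 to 1370 CPM in the control group and 770 to 1027 CPM in the stress group, without overlap. Of these 12 markers, 6 fell, 0 rose and 6 did not pass, with a median log2FC of -0.47. Leaving out 1 sample changed the 6 to between 2 and 8, with control replicates 2 and 3 and stress replicate 2 each moving it by over 1.5 times, and 12 were lower with total counts alone. Cd22, an inhibitory coreceptor of the B cell receptor, fell from 164 ± 15.0 to 99.5 ± 18.7 CPM (mean ± SD, n = 4 in each group), and Blk, a B cell kinase, from 48.6 ± 4.71 to 34.3 ± 2.28 CPM (mean ± SD, n = 4 in each group).

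Among the 10 marginal zone and follicular markers, 9 had enough counts to be tested. Cr2, Cd55, Fcer2a and Tnfrsf13c fell, Cd9 rose, and Fcmr, Tnfrsf13b, Cd1d1 and Cd38 did not pass. The 4 genes that fell stand against 3.69% of all tested genes that were lower at this threshold, and the 1 that rose against 10.4% that were higher. At the stricter thresholds of the study, a log2FC beyond 1 in size with adjusted p under 0.01, 0 of the 9 were called (0.0171% of all tested genes were called lower and 1.69% higher). The median log2FC of the 9 genes was -0.44. With libraries scaled by total counts alone, 8 of the 9 were lower and 0 higher at an adjusted p below 0.05, beside 49.6% of all tested genes lower and 0.444% higher.

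**Figure D1:**
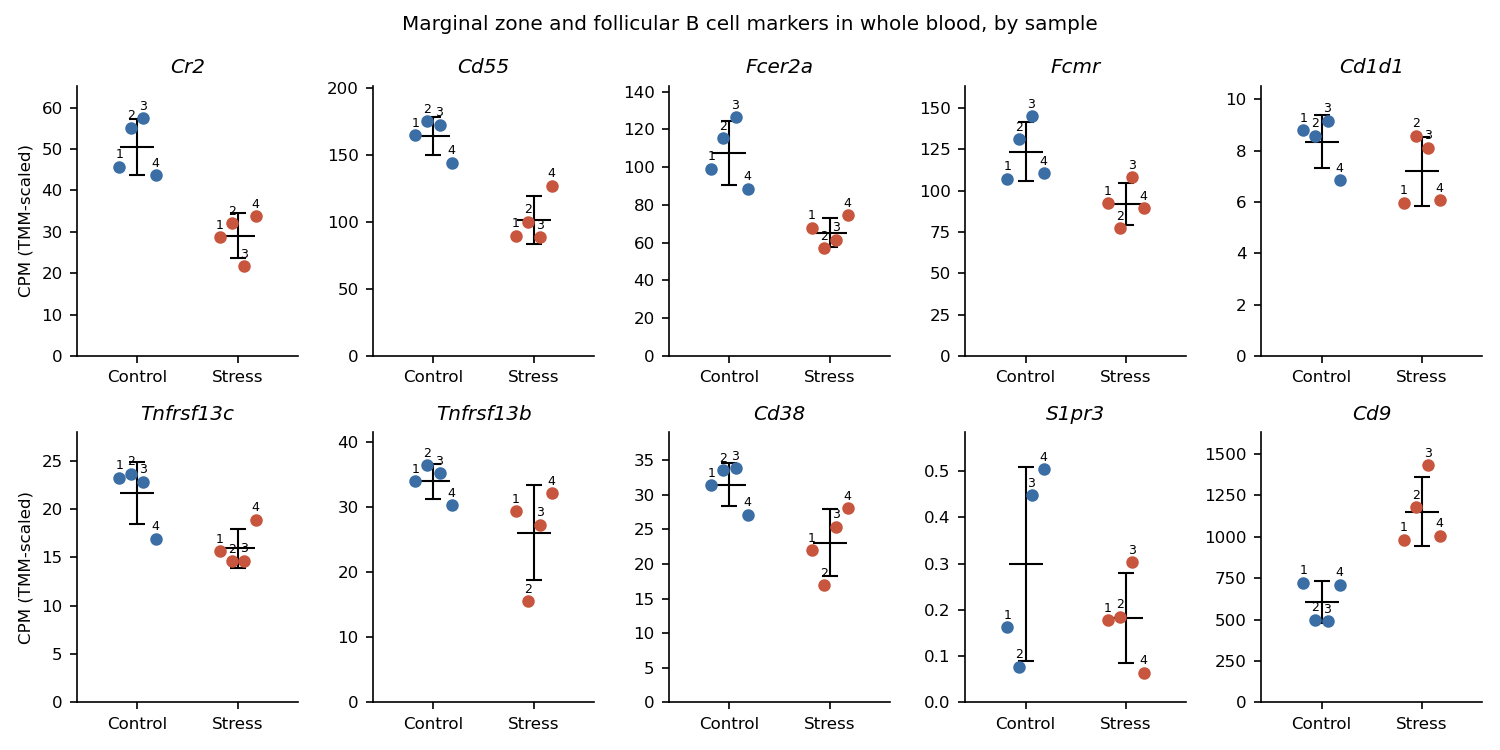
Level of each marker in every sample, in TMM-scaled CPM (vertical axes start at 0 and differ between panels), for 4 control (blue) and 4 stress (red) samples, with the replicate number beside each point and the mean ± SD in black. For Cr2, Cd55 and Fcer2a every stress sample lies below every control sample, and for Cd9 every stress sample lies above.

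Per length of their merged exons, which allows levels to be compared between genes, Cd9 led in the control group with 296 ± 62.7 CPM per kb (SD, n = 4), followed by Fcmr with 71.1 ± 10.3 CPM per kb. Fcer2a (34.7 ± 5.42 CPM per kb) and Cd55 (33.9 ± 2.90 CPM per kb) came next, and their ranges overlapped. Tnfrsf13b (12 ± 0.938 CPM per kb), Tnfrsf13c (10.6 ± 1.55 CPM per kb), Cd38 (8.09 ± 0.793 CPM per kb) and Cr2 (6.23 ± 0.841 CPM per kb) formed a run in which each overlapped the next. Cd1d1 had 3.25 ± 0.403 CPM per kb and S1pr3 0.0668 ± 0.0470 CPM per kb (SD, n = 4 for each gene). The order of the means was the same in the stress group, where Cd9 reached 562 ± 102 CPM per kb and Cr2 3.58 ± 0.667 CPM per kb (SD, n = 4). There Cr2 overlapped Cd1d1 below it and no longer Cd38 above it, and the other neighbours that overlapped in the control group overlapped too.

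The first pair of genes belongs to complement. Cr2 binds fragments of C3 on antigen and lowers the threshold of the B cell receptor. It lies on GRCm38 chromosome 1 at 195136811 to 195176716 (minus strand, protein-coding). Its level was 45.8, 55.2, 57.5 and 43.7 CPM in control replicates 1 to 4 and 28.6, 32.1, 21.6 and 33.8 CPM in stress replicates 1 to 4. Every stress sample was below every control sample, and stress replicate 3 was the lowest. The log2FC was -0.79 (SE, the standard error, 0.14; 95% interval -1.1 to -0.49), adjusted p = 0.00346 (edgeR).

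Cd55 encodes decay-accelerating factor, which protects cells from complement and is found on many blood cells besides B cells. It lies on chromosome 1 at 130439027 to 130462744 (minus strand, protein-coding), and 2.10% of its exon bases overlap an antisense gene, Gm16083, which matters only if counting ignored strand. Its level was 165, 176, 173 and 145 CPM in control replicates 1 to 4 and 89.9, 100.4, 89.0 and 127 CPM in stress replicates 1 to 4, again without overlap. Stress replicate 4 stood highest in its group. The log2FC was -0.69 (SE 0.14), adjusted p = 0.00650 (edgeR). Its paralog Cd55b had 0 to 14 counts per sample.

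Of the 10 other genes tested from a list of complement receptors and regulators, 5 rose, 0 fell and 5 did not pass, with a median log2FC of 0.68. C3, the component whose fragments Cr2 binds, rose from 7.29 ± 1.09 to 21.7 ± 9.37 CPM, and Cd59b, another protector against complement, from 1.46 ± 0.471 to 4.14 ± 0.924 CPM (mean ± SD, n = 4 in each group). Cd81, which associates with Cr2 on B cells but is also made by other blood cells, rose from 37.7 ± 2.54 to 59.4 ± 7.97 CPM (mean ± SD, n = 4 in each group). Itgax, a chain of complement receptor 4, had a log2FC of -0.41 (SE 0.19), which did not pass (adjusted p = 0.167, edgeR). On total counts alone 1 was higher and 1 lower, and the list's median was -0.06.

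The next pair binds immunoglobulin. Fcer2a, the low-affinity receptor for IgE (CD23), lies on chromosome 8 at 3681737 to 3694175 (minus strand, protein-coding). Its level was 99.3, 115, 127 and 88.7 CPM in control replicates 1 to 4 and 67.8, 57.1, 61.6 and 74.6 CPM in stress replicates 1 to 4. The groups did not overlap. The log2FC was -0.72 (SE 0.14, 95% interval -1.01 to -0.42), adjusted p = 0.00445 (edgeR). Cr2, Cd55 and Fcer2a thus make 3 of 9 tested genes with every stress sample below every control sample, an order found in 9.88% of all tested genes.

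Fcmr, the receptor for IgM, lies on chromosome 1 at 130865669 to 130880791 (plus strand, protein-coding). Its level was 107, 131, 145 and 110.3 CPM in control replicates 1 to 4 and 92.6, 77.2, 108 and 89.3 CPM in stress replicates 1 to 4. The groups overlapped, since stress replicate 3 lay above control replicate 1. The log2FC of -0.43 (SE 0.14) did not pass (adjusted p = 0.0585, edgeR), but passed without stress replicate 3 (log2FC -0.50, adjusted p = 0.0205, edgeR) and with DESeq2 (adjusted p = 0.0256).

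From a list of 9 immunoglobulin receptors and Fc receptor-like genes, all tested, 2 fell, 2 rose and 5 did not pass. The 2 that fell became 1 to 3 when 1 sample was left out, differing from 2 without control replicate 2, 3 or 4 or stress replicate 1, 2 or 4. Scaled by total counts alone, 5 were lower and 0 higher. Fcamr, the receptor for IgA and IgM, fell from 5.92 ± 0.291 to 2.20 ± 1.33 CPM (mean ± SD, n = 4 in each group), a log2FC of -1.35 (SE 0.30, adjusted p = 0.0110, edgeR). Fcrl1, a B cell gene, fell from 35.8 ± 4.03 to 26.9 ± 3.90 CPM (mean ± SD, n = 4 in each group). Fcgr3, an IgG receptor of myeloid and NK cells, rose from 10.5 ± 2.40 to 23.5 ± 3.55 CPM, and Fcer1g, the signalling chain shared by several Fc receptors, from 26.6 ± 5.09 to 47.3 ± 7.25 CPM (mean ± SD, n = 4 in each group).

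The sequences before the start sites of the 3 genes that fell without overlap, and of Cd9, which rose, are shown so that the genes that moved together can be set beside the one that moved the other way. They come from RefSeq on GRCm38.p6, where 9 of the 10 markers had an entry, run 5′ to 3′ along the gene and hold the 250 bases before the start site, or fewer where the GENCODE annotation starts the gene earlier. Capitals mark matches to 2 of the motifs searched on both strands, TGGGAA (the core bound by RBPJ, the Notch factor) and the NF-kB motif GGGA, 4 bases of any kind, CC.
Cr2 (chr1:195176720-195176969, minus strand): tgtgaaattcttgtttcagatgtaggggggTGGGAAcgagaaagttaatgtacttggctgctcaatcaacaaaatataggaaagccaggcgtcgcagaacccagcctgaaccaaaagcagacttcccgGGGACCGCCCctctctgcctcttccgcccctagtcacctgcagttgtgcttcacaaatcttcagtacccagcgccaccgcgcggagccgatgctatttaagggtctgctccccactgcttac
Cd55 (chr1:130462745-130462994, minus strand): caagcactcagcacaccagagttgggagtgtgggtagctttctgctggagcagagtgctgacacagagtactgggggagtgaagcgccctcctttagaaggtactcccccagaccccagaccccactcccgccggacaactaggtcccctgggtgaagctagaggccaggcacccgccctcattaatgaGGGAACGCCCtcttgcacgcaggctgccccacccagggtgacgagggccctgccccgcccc
Fcer2a (chr8:3694176-3694424, minus strand): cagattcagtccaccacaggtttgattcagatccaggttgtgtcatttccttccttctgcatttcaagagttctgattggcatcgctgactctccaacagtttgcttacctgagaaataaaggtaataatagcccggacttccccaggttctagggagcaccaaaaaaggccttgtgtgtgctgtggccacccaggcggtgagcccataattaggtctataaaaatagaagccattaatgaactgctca
Cd9 (chr6:125494792-125495010, minus strand): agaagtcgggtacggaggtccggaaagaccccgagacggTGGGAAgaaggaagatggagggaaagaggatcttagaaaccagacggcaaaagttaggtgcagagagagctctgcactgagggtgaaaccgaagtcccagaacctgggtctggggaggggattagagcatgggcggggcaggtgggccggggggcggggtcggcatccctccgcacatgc

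Cr2 held TGGGAA 220 bases and GGGACCGCCC 122 bases before its start site, Cd55 held GGGAACGCCC 61 bases before it, and Cd9 held TGGGAA 211 bases before it. The window printed for Fcer2a held neither, and those of its other 2 RefSeq start sites, not printed, held TGGGAA or its reverse complement. Of the markers whose windows are not printed, Fcmr and Tnfrsf13b held the NF-kB motif and Cd38 held TGGGAA, and these did not pass. The window of Tnfrsf13c, which fell, held neither. Of 32851 RefSeq windows of 250 bases, 21.6% held TGGGAA and 17.6% the NF-kB motif, so these matches are common. TGGGAA occurred in Cr2, which fell, and in Cd9, which rose. Whether any of these matches has a role was not tested. GAGGAA (PU.1) was in 23.3% of all windows, GGGTGT (KLF) in 13.9%, the EBF motif (TCCC, 2 bases, GGGA) in 0.779% and the glucocorticoid receptor motif (AGAACA, 3 bases, TGT, 1 base, CT) in 0.0365%, and none of these 4 was in the windows of Cr2, Cd55, Fcer2a or Cd9.

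The receptors for BAFF and APRIL control survival and maturation. Tnfrsf13c (BAFF receptor), on chromosome 15 at 82221743 to 82224369 (minus strand, protein-coding), carries the survival signal of mature B cells. Its level was 23.2, 23.6, 22.8 and 16.9 CPM in control replicates 1 to 4 and 15.7, 14.6, 14.6 and 18.9 CPM in stress replicates 1 to 4. Control replicate 4 lay among the stress samples, and the groups overlapped. The log2FC was -0.44 (SE 0.13), adjusted p = 0.0410 (edgeR). This call was lost in 6 of the 8 fits that left out 1 sample, where the adjusted p (edgeR) reached 0.129 without control replicate 2, 0.102 without control replicate 1, 0.108 without control replicate 3, 0.0971 without stress replicate 1, 0.111 without stress replicate 2 and 0.0695 without stress replicate 3. It was also lost with limma-voom (adjusted p = 0.0527) and with a block for replicate number (adjusted p = 0.0925, edgeR).

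Tnfrsf13b (TACI), which binds both BAFF and APRIL and is high on marginal zone cells, lies on chromosome 11 at 61126755 to 61149372 (plus strand, protein-coding). Its level was 34.0, 36.4, 35.1 and 30.2 CPM in control replicates 1 to 4 and 29.4, 15.5, 27.2 and 32.1 CPM in stress replicates 1 to 4. Stress replicate 2 stood far below the other stress samples, and replicate 4 lay within the control range. The log2FC of -0.38 (SE 0.18) did not pass (adjusted p = 0.171, edgeR), and was -0.17 without stress replicate 2 (adjusted p = 0.322, edgeR).

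The count ratio of Tnfrsf13b to Tnfrsf13c within a library, which needs no normalization, averaged 1.58 ± 0.140 in controls against 1.62 ± 0.384 under stress (SD, n = 4). The groups did not separate (two-sided exact permutation test over 70 assignments, p = 1, adjusted over the 2 ratios computed 1). Of 10 other genes tested from the BAFF and APRIL pathway, 2 rose, 0 fell and 8 did not pass, with a median log2FC of -0.12. Without control replicate 2 or 3 or stress replicate 2, 3 or 4, 1 rose, and without stress replicate 4, 1 fell. With total counts alone 6 were lower and 0 higher. Tnfsf13b, which encodes BAFF itself, rose from 0.396 ± 0.202 to 1.07 ± 0.304 CPM (mean ± SD, n = 4 in each group), at 13 to 43 counts per sample. Birc2, an inhibitor of the noncanonical NF-kB route, rose from 46.3 ± 6.02 to 69.996 ± 8.60 CPM, while Birc3, its relative in the same complex, was at 47.9 ± 1.41 and 39.6 ± 4.09 CPM (mean ± SD, n = 4 in each group) and did not pass (adjusted p = 0.0918, edgeR). Tnfsf13 (APRIL) had 0 to 9 counts and Tnfrsf17 (BCMA), the receptor of plasma cells, 0 to 6 counts per sample, too few to test.

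Cd1d1 presents lipid antigens to NKT cells and is made by B cells, monocytes and dendritic cells. It lies on chromosome 3 at 86995834 to 86999441 (minus strand, protein-coding), next to its near-identical copy Cd1d2. The symbol Cd1d2 was not in the count table, so the assignment of reads to Cd1d1 is uncertain. Its level was 8.80, 8.59, 9.18 and 6.84 CPM in control replicates 1 to 4 and 5.98, 8.58, 8.12 and 6.08 CPM in stress replicates 1 to 4. Stress replicates 2 and 3 lay within the control range and replicates 1 and 4 below it. The log2FC of -0.23 (SE 0.15) did not pass (adjusted p = 0.333, edgeR), and was -0.12 without stress replicate 1 (adjusted p = 0.656) and -0.15 without stress replicate 4 (adjusted p = 0.551, edgeR for both).

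S1pr3, a receptor for sphingosine 1-phosphate that helps place marginal zone B cells, lies on chromosome 13 at 51408639 to 51422797 (plus strand, protein-coding). It had 6, 4, 31 and 16 counts in control replicates 1 to 4 and 4, 4, 4 and 2 counts in stress replicates 1 to 4, and was left out of the main fit for that reason. In a fit without the count filter its log2FC was -0.78 (SE 0.76, adjusted p = 0.565, edgeR). Its levels, 0.0774 to 0.505 CPM in control and 0.0640 to 0.304 CPM in stress samples, overlapped, and a difference was not detectable at this depth.

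Among 12 genes for receptors that guide B cell migration, with the factor Klf2, 1 fell, 0 rose and 11 did not pass, with a median log2FC of -0.16. Scaled by total counts alone, 10 were lower and 0 higher. Cxcr5, which draws B cells into follicles, fell from 53.7 ± 6.53 to 37.5 ± 7.96 CPM (SD, n = 4 per group; adjusted p = 0.0356, edgeR), a call lost without any 1 of control replicates 2, 3 and 4 and stress replicates 2, 3 and 4. Itga4, an integrin chain, was at 144 ± 2.66 and 101 ± 31.2 CPM (mean ± SD, n = 4 in each group) and did not pass (adjusted p = 0.103, edgeR). S1pr2 was scarce, at 1.07 ± 0.379 and 1.71 ± 0.745 CPM (mean ± SD, n = 4 in each group), and did not pass either (adjusted p = 0.195, edgeR).

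Marginal zone B cells need Notch2, and 12 genes of its pathway were tested. Of these, 2 rose, 0 fell and 10 did not pass, with a median log2FC of -0.10. Without control replicate 1, 2 or 3, 1 rose, and without stress replicate 4, 1 fell. With total counts alone 9 were lower and 0 higher. Notch2 itself had a log2FC of -0.19 (SE 0.17) and its target Dtx1 one of -0.17 (SE 0.12). Both genes that rose encode proteases or their subunits: Psenen, part of gamma-secretase, from 16.4 ± 1.20 to 26.4 ± 6.34 CPM, and Adam10, which cleaves Notch receptors and also sheds CD23, from 48.6 ± 1.595 to 63.9 ± 6.24 CPM (mean ± SD, n = 4 in each group).

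Cd38, an ectoenzyme that consumes NAD and is carried by B cells and by other leukocytes, lies on chromosome 5 at 43868553 to 43912375 (plus strand, protein-coding). Its level was 31.4, 33.5, 33.8 and 27.1 CPM in control replicates 1 to 4 and 21.9, 16.9, 25.4 and 28.0 CPM in stress replicates 1 to 4. Only stress replicate 4 reached the control range, where it lay above control replicate 4. The log2FC of -0.45 (SE 0.14) did not pass (adjusted p = 0.0531, edgeR), and passed without stress replicate 4 (log2FC -0.56, adjusted p = 0.0217, edgeR), with DESeq2 (adjusted p = 0.0431) and with limma-voom (adjusted p = 0.0463). Without stress replicate 2 it was -0.30 (adjusted p = 0.136, edgeR).

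Cd9, a tetraspanin that is high on marginal zone B cells and also one of the most abundant proteins of the platelet surface, lies on chromosome 6 at 125460266 to 125494791 (minus strand, protein-coding), and 10.7% of its exon bases overlap Gm26728 on the other strand. Its level was 723, 498, 491 and 710.5 CPM in control replicates 1 to 4 and 981, 1177, 1432 and 1005 CPM in stress replicates 1 to 4. No stress sample was as low as any control sample, an order found in 11.1% of all tested genes, and stress replicate 3 was the highest. The log2FC was 0.92 (SE 0.22, 95% interval 0.45 to 1.39), adjusted p = 0.0145 (edgeR). Cd9 did not pass with libraries scaled by total counts alone (log2FC 0.13, adjusted p = 0.622) or without control replicate 2 (0.84, adjusted p = 0.0666, edgeR for both). Nor did it pass with a block for replicate number (0.93, adjusted p = 0.0567, edgeR).

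Platelet markers were higher as well as Cd9. So was the median of 8 erythroid markers (log2FC 1.05, and 0.24 with total counts alone), of which 1 rose. Which cells the Cd9 reads came from was not tested. Of 12 platelet markers, 12 rose, with a median log2FC of 0.99 and a summed level of 1738 to 2570 CPM in control and 3951 to 4638 CPM in stress samples, and none was at 0. With total counts alone 0 of the 12 were higher or lower at an adjusted p below 0.05. Per 100 counts of these 12 markers, Cd9 had 28.8, 27.8, 28.3 and 27.6 counts in control replicates 1 to 4 and 24.3, 27.4, 30.9 and 25.4 counts in stress replicates 1 to 4. With each library scaled to its platelet-marker count, the log2FC of Cd9 was -0.06 (SE 0.23, 95% interval -0.51 to 0.39, adjusted p = 0.821, edgeR), beside 79.5% of all tested genes lower and 0.418% higher on that scale. Cd9 had 35.9 to 64.2 counts per 100 pan-B counts in control and 97.9 to 153 in stress samples, an order of groups seen in 29.3% of all tested genes.

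Of 10 other tetraspanins, 4 rose, 0 fell and 6 did not pass. The 4 became 2 to 6 when 1 sample was left out, moving by over 1.5 times without control replicate 1, 2 or 3 or stress replicate 2, and 1 fell without stress replicate 3. Scaled by total counts alone, 3 were lower and 0 higher. Cd151 rose from 27.1 ± 5.93 to 49.3 ± 5.002 CPM (mean ± SD, n = 4 in each group), and Cd37, a tetraspanin of B cells, was at 160 ± 13.2 and 124 ± 11.5 CPM (mean ± SD, n = 4 in each group) and did not pass (adjusted p = 0.0648, edgeR).

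The fit was repeated with each library scaled to its summed pan-B count, which asks whether a marker differed from the B cell transcripts as a whole. That sum was 36464 to 94780 counts in control and 12899 to 32072 counts in stress samples. On this scale 0 of the 9 tested markers were lower and 1, Cd9, was higher at an adjusted p below 0.05 (0.0597% of all tested genes were lower and 31.5% higher). At an unadjusted p under 0.05 (edgeR), 0 of the 9 were lower, beside only 19 of all 11718 tested genes. Cd9 was also past the study's stricter thresholds on this scale, as were 9.02% of all tested genes in the higher direction, but not without control replicate 2 or stress replicate 2. With DESeq2 on the same scale 0 were lower at an adjusted p below 0.05, beside 0.0683% of all tested genes. Fcer2a was lower at an unadjusted p under 0.05 (log2FC -0.29, unadjusted p = 0.0480, adjusted p = 0.110, DESeq2). The share of all tested genes at that unadjusted threshold was not computed for DESeq2. The log2FC was -0.35 (95% interval -0.73 to 0.03) for Cr2, -0.29 (-0.66 to 0.08) for Fcer2a and -0.27 (-0.69 to 0.15) for Cd55. In the same order, the values were -0.31, -0.24 and -0.22 with the geometric mean of the pan-B markers. They were -0.27, -0.20 and -0.18 without Cd79a and Cd79b. On the summed pan-B count the log2FC was -0.00 (-0.39 to 0.39) for Fcmr, -0.02 (-0.36 to 0.33) for Tnfrsf13c, 0.01 (-0.35 to 0.37) for Tnfrsf13b, -0.04 (-0.38 to 0.29) for Cd38 and 0.22 (-0.20 to 0.65) for Cd1d1. These intervals leave room for changes in either direction.

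**Figure D2:**
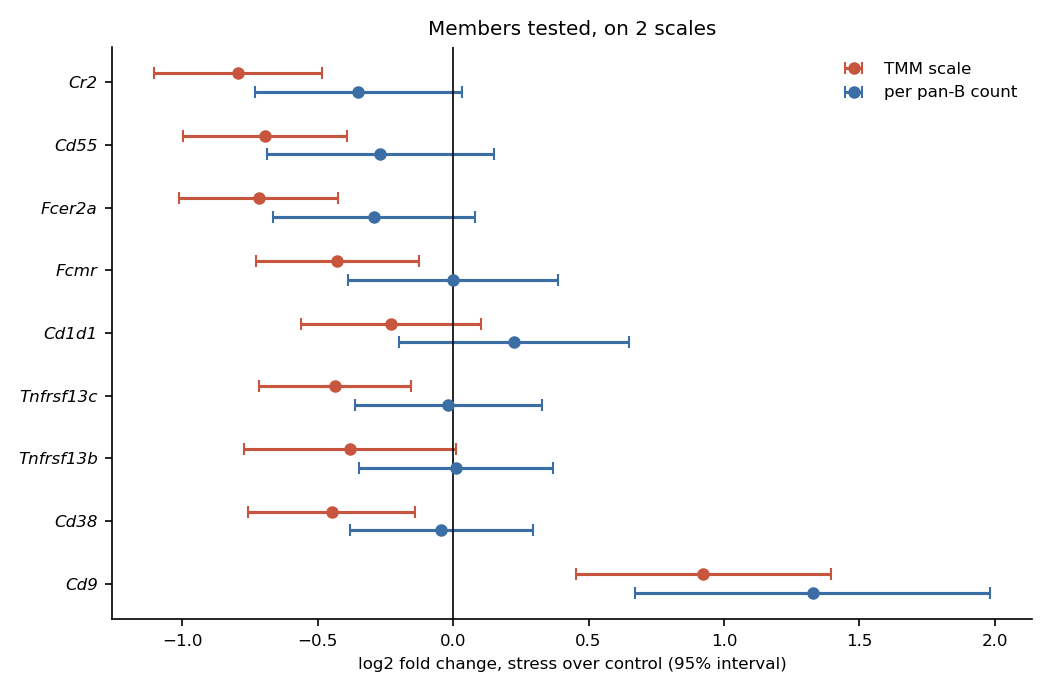
Log2FC (stress over control) with its 95% interval for the 9 markers tested, on the TMM scale (red) and with libraries scaled to the summed pan-B count (blue). Cr2 moves from -0.79 to -0.35 and Fcmr from -0.43 to -0.00 between the scales, and Cd9 stays above 0 on both.

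Per 100 pan-B counts, Fcer2a had 8.81, 8.41, 9.24 and 7.71 counts in control replicates 1 to 4 and 6.94, 7.42, 6.30 and 7.26 counts in stress replicates 1 to 4. Every stress sample lay below every control sample, an order that 0.256% of all tested genes showed on this scale, although the fit across genes gave an adjusted p of 0.216 (edgeR). The median log2FC of all tested genes was 0.40 on this scale, which leaves few genes lower. Among the 12 pan-B markers themselves it ran from -0.31 (Cd22) to 0.20 (Cd79b), beside -0.29 for Fcer2a. Cr2 had 4.06, 4.03, 4.20 and 3.80 counts per 100 pan-B counts in control replicates 1 to 4 and 2.93, 4.18, 2.21 and 3.30 in stress replicates 1 to 4. Stress replicate 2 lay in the control range and the other 3 below it, and without stress replicate 2 the fit gave a log2FC of -0.51, adjusted p = 0.0362 (edgeR). Without stress replicate 3, the lowest, it gave -0.22 (adjusted p = 0.318, edgeR). Fcmr had 9.51 to 10.6 counts per 100 pan-B counts in control and 8.70 to 11.0 in stress samples, so that the stress samples spanned the control range.

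**Figure D3:**
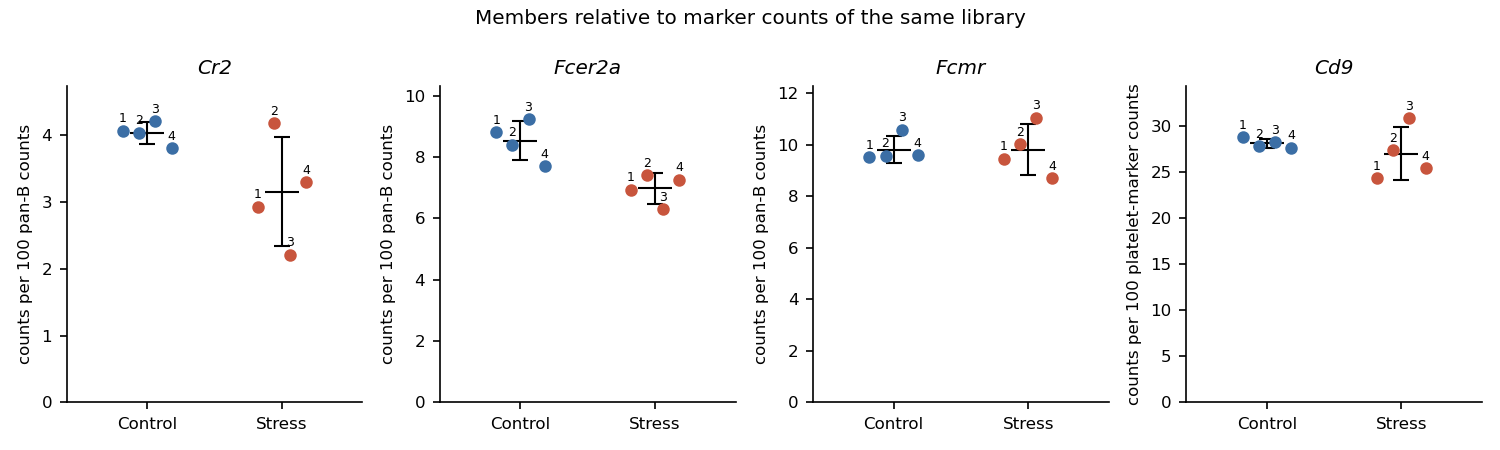
Counts of Cr2, Fcer2a and Fcmr per 100 pan-B counts and of Cd9 per 100 platelet-marker counts of the same library (vertical axes start at 0), for 4 control (blue) and 4 stress (red) samples with replicate numbers and mean ± SD. Fcer2a does not overlap between the groups, 3 of the 4 stress samples are below the controls for Cr2, and Fcmr and Cd9 overlap.

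The ratio of Cr2 to Fcer2a counts, high in marginal zone and low in follicular cells, was 0.461, 0.479, 0.455 and 0.493 in control replicates 1 to 4 and 0.422, 0.563, 0.351 and 0.454 in stress replicates 1 to 4. The stress samples were spread on both sides of the control samples, and the groups did not separate (difference of the mean log2 ratio -0.10, p = 0.571 by the same exact permutation test, 1 after adjustment for both ratios). The value depended on single libraries: without stress replicate 2 the difference was -0.21 (exact permutation test, p = 0.0286, the smallest possible), and without stress replicate 3 it was 0.01 (p = 0.943, exact permutation test).

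Markers of other blood cell types moved in different directions beside the B cell genes. These are levels relative to the other RNA of the library, not cell counts. By flow cytometry the study reported fewer monocytes, NK cells, B cells and T cells and more neutrophils in blood after restraint. Monocyte markers rose here while that monocyte count fell, and the reason was not tested. Of 11 neutrophil markers tested, 8 rose and 3 did not pass (summed level 192 to 379 CPM in control and 589 to 873 CPM in stress samples), and of 8 classical monocyte markers 7 rose and 1 did not pass (318 to 441 CPM and 673 to 1119 CPM). Of 10 T cell markers, 0 fell and 0 rose (419 to 464 CPM in control and 382 to 507 CPM in stress samples), with a median log2FC of -0.06, and of 8 NK cell markers 0 fell and 0 rose (63.4 to 108 CPM and 54.2 to 127 CPM). Of 6 dendritic cell markers, 2 rose and 4 did not pass, of 3 eosinophil markers tested 1 rose, 1 fell and 1 did not pass, and of 8 erythroid markers 1 rose and 7 did not pass. Of 5 plasma cell markers tested, Xbp1 rose from 15.1 ± 1.35 to 24.3 ± 3.40 CPM (mean ± SD, n = 4 in each group), and the other 4 did not pass. Calls in the NK cell (0 to 2 lower, 2 without stress replicate 3), dendritic cell (1 to 2 higher), eosinophil (0 to 1 higher) and erythroid (0 to 4 higher) lists changed when 1 sample was left out, for the last 3 lists with libraries of both groups. With total counts alone, 6 of the 10 T cell markers, 7 of the 8 NK cell markers, 3 plasma cell and 2 dendritic cell markers were lower, and 4 neutrophil, 4 classical monocyte and 2 erythroid markers were higher. On that scale, where the median of all tested genes was -0.82, the log2FC turned negative for Birc2 (-0.20), Cd81 (-0.16), Psenen (-0.16), Adam10 (-0.38) and Xbp1 (-0.09), and stayed positive for C3 (0.86), Cd59b (0.72), Fcgr3 (0.48) and the median platelet marker (0.22). The part of these cell types in the levels of Cd55, Cd38 and Cd1d1 was not tested.

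**Figure D4:**
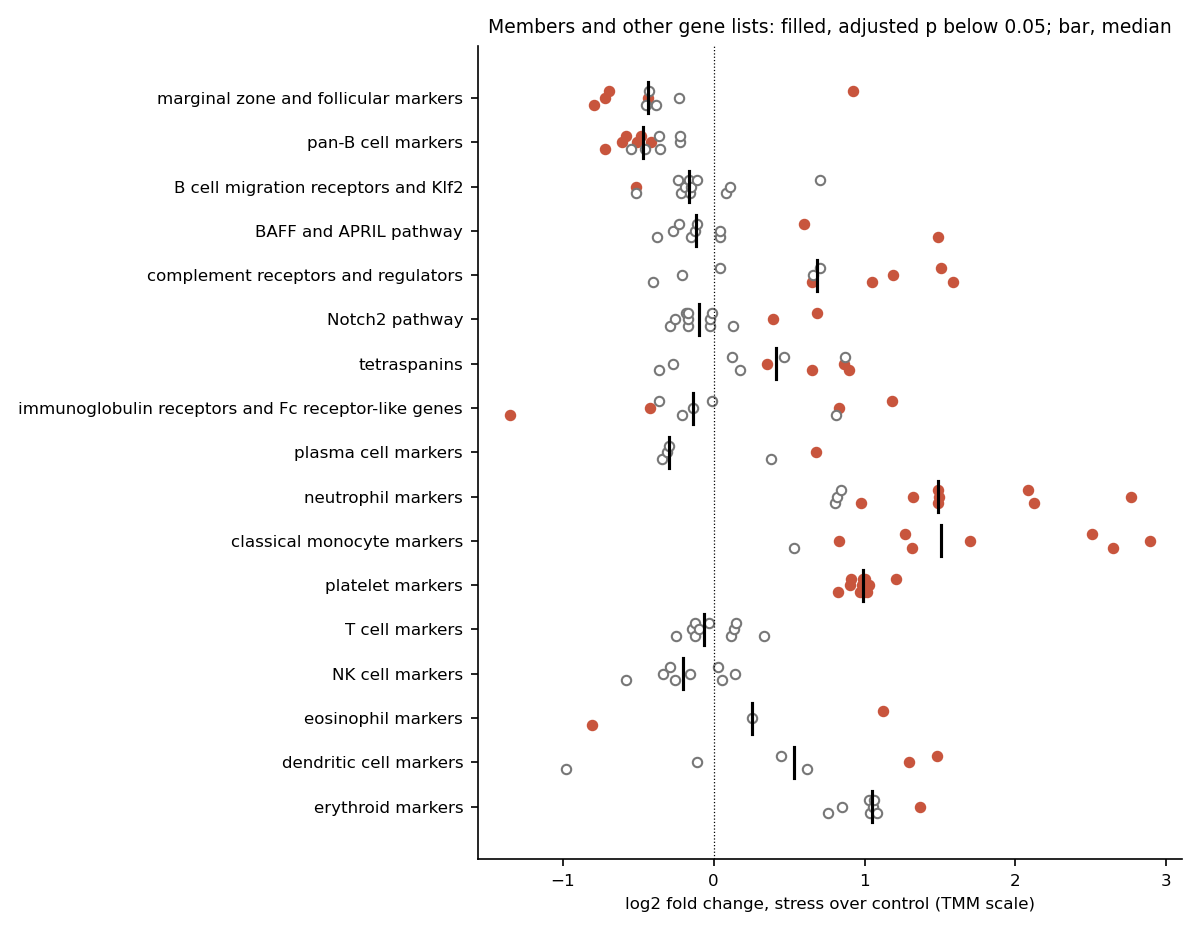
Log2FC (TMM scale, stress over control) of every tested gene in the 10 markers and in 16 other gene lists, 1 point per gene. Filled points have an adjusted p below 0.05 (edgeR) and bars are medians, which lie at -0.44 for the marginal zone and follicular markers, -0.47 for pan-B cell markers and 0.99 for platelet markers.

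Over the 8 samples, the tested genes whose centred log2 CPM lay closest to that of each marker were found by the mean absolute difference. For Fcer2a they were Cd22 (difference 0.09), Aldh6a1 (0.10) and Exoc1 (0.11), and for Fcmr they were Fcrla (0.05), H2-Aa (0.06) and Fen1 (0.06). For Cr2 they were Cep295 (0.10), Zfp318 (0.11) and Lrrk2 (0.11), and for Cd55 they were Zfp354c (0.06), Leng8 (0.06) and Trim5 (0.07). For Tnfrsf13c they were Ero1lb (0.05), BC094916 (0.06) and Pomt1 (0.06), and for Tnfrsf13b they were Snx32 (0.07), Akap17b (0.09) and Cd38 (0.10). For Cd1d1 they were Ccnc (0.05), 4930503L19Rik (0.05) and Ints10 (0.08), and for Cd38 they were Hvcn1 (0.08), Galnt11 (0.08) and 5031414D18Rik (0.08). For Cd9 they were Myl9 (0.03), Nrgn (0.04) and Dap (0.04). With 11718 genes and 8 samples, close profiles are found for any gene. Within the markers, Tnfrsf13b and Cd38 were the closest of 36 pairs (0.10), Cr2 and Fcer2a differed by 0.13, and Cd9 was at least 0.58 from each of the others.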

How the data were processed

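Bulk RNA-seq was made from mouse blood, 4 samples in each of the 2 groups. The table deposited by the authors gives raw counts for each symbol and sample, not normalized. HISAT2, featureCounts and mm10 are named in the submitters' processing notes. Versions, annotation and strand setting are not given in the sources used here. Coordinates and exon lengths come from GENCODE M21 (GRCm38), promoter sequences from RefSeq.

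Genes that reached 10 counts in 4 or more samples (11718 of 21878) were tested in R 4.3.3 with edgeR 4.0.16 (TMM, robust quasi-likelihood test, Benjamini-Hochberg adjustment over all tested genes). The fit was tested on simulated data with known changes. CPM used the TMM-scaled library size. A second fit used the summed pan-B count as library size, and another, chosen after seeing the data, the platelet-marker count. Ratios were compared by exact permutation. DESeq2 1.42.0, limma-voom (limma 3.58.1), other normalizations and filters, omission of single samples and a replicate block served as alternatives. The labels number the samples as replicates without naming the animal, so p-values measure the spread between these samples, which may be technical.

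The genes named are the 10 markers, up to 2 genes per list and direction with the smallest p, and the 3 closest to each marker. Notch2, Dtx1, Cd55b, Tnfsf13, Tnfrsf17 and the examples of pan-B markers were named for their role. The markers and the 16 lists were chosen with earlier results of these data known.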

Additional observations from a re-analysis of the deposited data

Results flagged for a closer look

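In groups of 4 samples, 42 series of values were searched for a sample far from the other 3 by Dixon's test, of which chance gives about 1 in 20, and 3 were found. Control replicate 4 had the lowest Tnfrsf13c level of its group, 16.9 CPM against 22.8 to 23.6 CPM in the other 3 control samples. Control replicate 1 had the highest Cd55 value, 14.7 counts per 100 pan-B counts. Control replicate 3 had the highest Fcmr value, 10.6 counts per 100 pan-B counts.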

How the results depend on the processing

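Cr2, Cd55 and Fcer2a passed as lower in 17 of 17 alternatives, with adjusted p up to 0.0182, 0.0296 and 0.0227, Tnfrsf13c in 9 and Cd9 as higher in 14. With total counts alone 8 markers were lower, 0 higher and 6 called at the study's thresholds. On that scale 49.6% of all tested genes were lower, and 6.22% were called lower and 0.119% higher at those thresholds. Leaving out 1 sample gave 3 to 5 lower, 0 to 1 higher and 0 called. In those fits 0.702% to 6.26% of all tested genes were lower and 5.35% to 12.3% higher. Per pan-B count, leaving out 1 sample gave 0 to 1 lower, 1 higher and 0 to 1 called. There 0.0173% to 0.112% of all tested genes were lower and 18.9% to 33.5% higher, and 5.05% to 12.4% were called higher. Replicate numbers did not pair the samples (correlations of deviations 0.06, 0.000443, -0.04 and -0.16; 1 of 4 highest with its own number). The replicate block left 3 markers lower and 0 higher, beside 2.05% and 7.84% of all tested genes. Per pan-B count it left 0 called, beside 0.0171% of all tested genes called lower and 10.2% higher. The log2 ratio of Cr2 to Fcer2a differed by -0.215 to 0.0125 between groups when 1 sample was left out, and that of Tnfrsf13b to Tnfrsf13c by -0.0746 to 0.199. Per pan-B count, log2 fold changes near 0 changed sign: Fcmr was 0.0503, Tnfrsf13c 0.0287 and Cd38 0.00707 with the geometric mean of the markers, and 0.102, 0.0741 and 0.0551 without Cd79a and Cd79b, and Tnfrsf13b was -0.00756 with the replicate block. Leaving out 1 sample gave -0.0631 to 0.0525 for Fcmr, -0.0865 to 0.0764 for Tnfrsf13c, -0.104 to 0.00917 for Cd38 and -0.0627 to 0.131 for Tnfrsf13b. The cause was not tested. Depth limits S1pr3, with 2 to 31 counts per sample.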

Other observations

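Relative to the pan-B count, 7 of the 11718 tested genes were lower at an adjusted p below 0.05 (edgeR). Leaving out 1 sample changed this to between 2 (without control replicate 2) and 13 (without stress replicate 2), with 3 without control replicate 1. Besides Fcamr (log2 fold change on that scale -0.96, adjusted p = 0.0153) they were Cacna1e (-0.76), Gm2808 (-2.19), Rpgrip1 (-0.71), Dennd5b (-0.55), Srpk3 (-0.49) and AU041133 (-0.999), which are named here after their values were seen. Cacna1e, a calcium channel subunit, had 598, 750, 1180 and 393 counts in control replicates 1 to 4 and 143, 106, 67 and 322 counts in stress replicates 1 to 4 (adjusted p = 0.00580, edgeR). Gm2808 had 0 to 4 counts in the stress samples, so its fold change is uncertain.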
